A study of Mus musculus with 12 samples.

Results

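The 10 genes described here are commonly read as signs of an epithelial or a mesenchymal state, and they were followed across mouse embryonic fibroblasts that lack a death-signalling gene or have it put back. They were chosen by gene symbol: the simple keratins Krt8, Krt18 and Krt19, the epithelial adhesion gene Epcam, the cadherins Cdh1, Cdh2 and Cdh11, the intermediate filament gene Vim, and the actin-associated genes Acta2 and Tagln. All 10 symbols were found once each among the 55573 genes of the tables. Of the 10, 8 passed a filter on low counts and were tested among 16396 genes, while Krt8 and Cdh1 had too few counts to be tested. RNA was measured in 12 libraries, 3 in each of 4 groups, and each library came from its own culture per the labels.

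The cells of every group were embryonic fibroblasts immortalised with the SV40 large T antigen, every group lacked Mlkl, and no treatment was given before harvest 24 h after plating. The first group was Fadd -/-, Mlkl -/- with an empty vector, and the second was the same genotype with Fadd re-expressed. The third was Casp8 -/-, Mlkl -/- with an empty vector, and the fourth was that genotype with Casp8 re-expressed. These are called the Fadd/Mlkl knockout, the Fadd-restored, the Casp8/Mlkl knockout and the Casp8-restored group here, and the pairs sharing a genotype are called the Fadd line and the Casp8 line. The adaptor protein FADD recruits caspase-8 beneath death receptors, and MLKL carries out necroptosis. All 4 groups lack Mlkl, so none shows the level in cells that keep it, and the sources used here do not say whether a line is 1 clone. The lines differ in the deleted gene and in the cells that were immortalised, so a difference between lines that goes with the genotype cannot be told apart from a difference between those starting cells.

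Epithelial cells hold together through E-cadherin, encoded by Cdh1, and carry a cytoskeleton of paired keratins, in which the type II keratin 8 pairs with the type I keratins 18 and 19. Fibroblasts carry vimentin filaments instead and express N-cadherin, encoded by Cdh2, and cadherin-11. Contractile fibroblasts express smooth muscle alpha-actin (Acta2) and transgelin (Tagln), genes known to be driven through CArG boxes bound by the serum response factor SRF, and repressors of the SNAI and ZEB families silence epithelial genes through sites that read CACCTG.

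Promoter sequences are shown because the epithelial genes and Acta2 are textbook targets of those factors. The RefSeq promoter table (build GRCm38.p6) was read for Krt18, Epcam, Vim and Acta2. The 250 bases before each of their RefSeq starts were searched on both strands for CACCTG and for the CArG box, and capitals mark the matches. Epcam and Krt18 held CACCTG, which is present in 17.2% of all 32851 promoters of that length. The stretches before the starts of Epcam (chr17:87635729-87635978, + strand) and Krt18 (chr15:102027966-102028179, + strand) read 5′ to 3′ as follows, the latter printed only up to where the GENCODE gene begins.
Epcam: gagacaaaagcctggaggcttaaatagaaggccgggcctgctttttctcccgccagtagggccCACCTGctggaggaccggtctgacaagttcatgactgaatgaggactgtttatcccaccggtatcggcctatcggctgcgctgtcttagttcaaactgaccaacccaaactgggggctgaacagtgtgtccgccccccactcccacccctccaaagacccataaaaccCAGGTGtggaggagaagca
Krt18: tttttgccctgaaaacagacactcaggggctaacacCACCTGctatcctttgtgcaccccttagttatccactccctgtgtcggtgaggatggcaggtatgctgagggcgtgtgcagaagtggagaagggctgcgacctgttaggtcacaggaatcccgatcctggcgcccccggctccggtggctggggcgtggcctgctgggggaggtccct
Epcam carried 2 matches, which begin 187 and 19 bases before its RefSeq start, and the latter is the reverse complement. No strict CArG box was found in the 4 promoters, against a share of 1.47% over all promoters and 22.2% over the 18 contractile genes with an entry. With 1 letter other than A or T allowed in the middle of the box, a rule added after the sequence was seen, Acta2 held 2 matches, 84 and 34 bases before its RefSeq start, and 8.59% of all promoters held at least 1. That start lies inside the longer GENCODE span of Acta2 given below. These stretches lie at chr19:34255438-34255467 and chr19:34255388-34255417 on the − strand.
Acta2 distal: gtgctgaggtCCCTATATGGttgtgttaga
Acta2 proximal: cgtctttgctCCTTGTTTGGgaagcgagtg
Neither motif was found in the Vim window. A match describes letters only, and binding was not measured.

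Library totals ran from 33918359 to 59388559 expected counts, so 3 counts correspond to 0.0527 to 0.0878 CPM, which are counts scaled to library size. Fadd and Casp8 were each lowest in the group labelled as lacking them. Fadd stood at 0.0998 ± 0.0704 CPM (mean ± SD, n = 3) in the Fadd/Mlkl knockout and 23.7 ± 3.96 when re-expressed. Casp8 stood at 11.3 ± 1.01 CPM in the Casp8/Mlkl knockout and 141 ± 63.4 when re-expressed, so Casp8 RNA was still counted where the gene is labelled as deleted. Mlkl, deleted in all groups per the labels, read 8.50, 10.6, 7.48 and 6.37 CPM in the 4 groups in the order above, and counts per gene do not show whether a deleted stretch was read. On the first principal component of the 16396 genes tested, which held 52.3% of the variance, the 2 replicate 1 libraries of the Casp8 line lay at 22.3 and 36.3, and the other 4 of that line at 81.9 to 103. The Fadd line libraries lay at -114 to -38.3. Protein-coding genes took 81.4% of the counts of Fadd/Mlkl knockout replicate 1 and 85.0% to 88.9% of the others, and rRNA genes 1.11% of it against 0.362% to 0.753%. Mitochondrial genes took 1.43%, 1.24%, 0.826% and 1.21% of the replicate 1 libraries in group order, and 0.548% to 0.931% of the other 8. A fit without the replicate 1 libraries of all 4 groups, added once the data had been seen, is given below where it changes a call.

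Markers of other cell types were read as summed TPM, a unit scaled for gene length and library size. The 8 fibroblast markers differed between the lines: they summed to 47.0 to 107 in the Fadd/Mlkl knockout and 91 to 302 in the Fadd-restored group, with Thy1 and Lum at 0 in both. They summed to 341 to 1921 in the Casp8/Mlkl knockout and to 788 to 1508 in the Casp8-restored group, in which Thy1 was at 0. The 4 keratinocyte markers summed to 1.83 to 4.08 over all libraries with Krt5 at 0 throughout, and the 5 endothelial markers to at most 0.15. The 5 leukocyte markers summed to 0.37 to 1.25 with Cd3e at 0 throughout. The 5 mesothelial markers, a coelomic lining that expresses keratins, summed to 1.86 to 13.3, 11.3 to 21.2, 2.11 to 14.6 and 2.23 to 3.67 in the 4 groups in the order above, with Upk1b at 0 throughout. The 5 smooth muscle and pericyte markers summed to 1.23 to 4.43, 3.64 to 7.16, 5.78 to 13.1 and 3.83 to 7.51. The 5 neural markers summed to 1.89 to 3.53, 1.53 to 2.74, 4.56 to 11.7 and 3.42 to 3.95, with Snap25, Rbfox3 and Sox10 at 0 throughout, and the 5 skeletal muscle markers to at most 1.14. The part of these markers in the results below was not tested, and in bulk libraries fewer cells of a type and less RNA per cell cannot be told apart.

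The epithelial genes were at the edge of detection in these fibroblasts, with the exception of Krt19. Krt8 (chromosome 15, 101996698 to 102004482 in mm10) had 3 expected counts over the 3 Fadd/Mlkl knockout libraries, 19 over the Fadd-restored, 11 over the Casp8/Mlkl knockout and 4 over the Casp8-restored libraries. All 11 counts of the Casp8/Mlkl knockout and all 4 of the Casp8-restored group were in replicate 1, and no Krt8 value exceeded 0.09 TPM. The ratio of the pooled levels, Fadd-restored over Fadd/Mlkl knockout, was 7.42, with a 95% counting interval of 2.19 to 39.2 that covers counting error only. Without the filter on low counts its log2 change in the Fadd line was -2.78 (SE 1.47, edgeR adjusted p = 0.842).

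Krt18, the partner of keratin 8 (chromosome 15, 102028180 to 102032027), had no counts in the 6 Fadd line libraries. An absence of counts allows up to 0.019 CPM over the Fadd/Mlkl knockout libraries and 0.0223 CPM over the Fadd-restored libraries, taken as 3 counts per group. In TPM it stood at 0.06, 0.15 and 0.18 in the Casp8/Mlkl knockout and at 0, 0.05 and 0.16 in the Casp8-restored group. It was thus seen in 5 of 6 Casp8 line libraries, 52 counts in all being 30 and 22 per group. Against the Casp8/Mlkl knockout, Krt18 was at least 13-fold lower in the Fadd/Mlkl knockout (edgeR adjusted p = 0.0701), which did not pass the threshold of 0.05. That contrast passed with the replicate number as a block within each line (edgeR adjusted p = 0.0467), with no filter (0.0438), without the replicate 1 libraries (0.0109), by DESeq2 (0.0348) and by limma-voom (0.0292). It passed in none of the 6 fits that leave out 1 library (edgeR adjusted p from 0.0654 to 0.178). Krt18 passed the filter on low counts through the Casp8 line, the only line in which it had counts. Its p-values are thus given as a description, and these fits share libraries. The restored groups differed at least 6.33-fold (edgeR adjusted p = 0.151), and passed without Casp8-restored replicate 1, the library of that group with no count (edgeR adjusted p = 0.0329), and without all replicate 1 libraries (0.0223).

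Krt19, the smallest of the keratins (chromosome 11, 100140810 to 100148665), was the only keratin of the 3 with appreciable signal. Replicates 1, 2 and 3 read 1.88, 2.03 and 0.37 TPM in the Fadd/Mlkl knockout and 15.6, 6.72 and 2.65 TPM in the Fadd-restored group. They read 6.25, 2.46 and 2 TPM in the Casp8/Mlkl knockout and 2.15, 1.62 and 1.63 TPM in the Casp8-restored group. The Fadd line groups did not overlap and the knockout was low, while in the Casp8 line the groups overlapped and replicate 1 was the highest in each. The log2 change, knockout against restored, was -2.36 in the Fadd line (SE 0.748, edgeR adjusted p = 0.219) and 1.06 in the Casp8 line (SE 0.723, edgeR adjusted p = 0.952). The replicate numbers were taken to pair the libraries within each line, an assumption described with the processing. With the number as a block the Fadd line change was -2.34 and passed (edgeR adjusted p = 0.0343). In the same blocked fit the difference between the lines' changes was -3.17 (edgeR adjusted p = 0.0494), against -3.42 without the block (SE 1.04, edgeR adjusted p = 0.278). Between the restored groups Krt19 was higher in the Fadd line by 1.90 with the block (edgeR adjusted p = 0.0195) and by 2.25 without it (SE 0.745, edgeR adjusted p = 0.107). The Krt19 calls depend on the method and on how the numbers enter the fit. By DESeq2 with no block the Fadd line change, the difference and the restored groups passed (adjusted p = 0.0227, 0.0255 and 0.0142). By limma-voom with no block they did not (adjusted p = 0.272, 0.495 and 0.17). With a block shared by all 12 libraries the Fadd line change did not pass (edgeR adjusted p = 0.0599), nor did the difference between lines (0.108), while the restored groups did (0.0481). None of them passed without the replicate 1 libraries, which hold the highest restored value: the Fadd line change was -1.81 (0.198), the difference -2.25 (0.17) and that of the restored groups 1.53 (0.124). Without Fadd-restored replicate 1 alone the Fadd line change was -1.47 (edgeR adjusted p = 0.57).

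Summed over Krt8, Krt18 and Krt19, keratin TPM came to 0.394%, 0.367% and 0.0857% of Vim TPM in the Fadd/Mlkl knockout and 2.43%, 0.981% and 0.397% in the Fadd-restored group. The shares were 0.526%, 0.326% and 0.268% in the Casp8/Mlkl knockout and 0.234%, 0.139% and 0.165% in the Casp8-restored group. The knockout was the lower group in the Fadd line and the higher in the Casp8 line, with no overlap in either. Each line gave an exact two-sided permutation p of 0.1 (0.141 adjusted over the 24 ratio tests run), the smallest that 3 against 3 libraries allow, and the opposite directions were not tested against each other. Not divided by Vim, the keratin sum of the Casp8 line groups met at 2.18 TPM (Casp8/Mlkl knockout replicate 3 and Casp8-restored replicate 1). Its exact permutation p was 0.2 in the Casp8 line (0.253 adjusted) and 0.1 in the Fadd line (0.141 adjusted).

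Epcam, which encodes an adhesion molecule of epithelia (chromosome 17, 87635979 to 87651129), read 0.01, 0 and 0 TPM in the Fadd/Mlkl knockout and 0.13, 0.15 and 0 TPM in the Fadd-restored group. It read 0.14, 0.11 and 0.12 TPM in the Casp8/Mlkl knockout and 0.1, 0.01 and 0.03 TPM in the Casp8-restored group. The Casp8/Mlkl knockout was above all Fadd/Mlkl knockout and Casp8-restored libraries, and 2 of the 3 Fadd-restored libraries reached its range. Epcam was lower in the Fadd/Mlkl knockout than in the Casp8/Mlkl knockout, 1 count against 38, which makes the pooled level 49.5 times as high in the latter (95% counting interval 8.36 to 2000). That contrast passed (log2 -5.14, SE 1.36, edgeR adjusted p = 0.0349), for a gene that passed the filter on low counts through the groups in which it had counts. It was lost on leaving out any 1 of the 6 libraries other than Casp8/Mlkl knockout replicate 1, with edgeR adjusted p between 0.0761 and 0.119, and kept at 0.0495 without that replicate. Without all replicate 1 libraries it was lost (edgeR adjusted p = 0.0579), by limma-voom it was lost (0.0577), and without Fadd/Mlkl knockout replicate 1, the only library of its group with a count, the log2 value was -6.87. Within the Fadd line the log2 change of -4.69 (SE 1.38) did not pass (edgeR adjusted p = 0.172), and it passed at -5.26 without Fadd-restored replicate 3, the library with no Epcam count (edgeR adjusted p = 0.0372). In the Casp8 line the change was 1.96 (SE 1.01, edgeR adjusted p = 0.904).

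Cdh1, which encodes the adherens junction cadherin of epithelia (chromosome 8, 106603351 to 106670246), had 7, 12, 21 and 16 expected counts per group in the order above. No library exceeded 0.05 TPM, and the gene was not tested. In CPM the knockout groups did not overlap (0.0351 to 0.0657 in the Fadd line and 0.0922 to 0.276 in the Casp8 line). Without the filter its log2 change was -0.95 in the Fadd line (SE 1.22, edgeR adjusted p = 0.96) and -1.88 between the knockout groups (SE 1.19, edgeR adjusted p = 0.482). The cadherins of the set that could be tested were Cdh2 and Cdh11.

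Cdh2, which encodes N-cadherin (chromosome 18, 16588877 to 16809246), separated 3 levels across the groups. It read 0.68, 0.87 and 0.97 TPM in the Fadd/Mlkl knockout and 7.98, 9.97 and 11.7 TPM in the Fadd-restored group. It read 36.2, 36.6 and 42.4 TPM in the Casp8/Mlkl knockout and 27.7, 112 and 99.1 TPM in the Casp8-restored group. The Fadd/Mlkl knockout was below all others, the Fadd-restored group was next, and the Casp8 line groups lay above both and overlapped each other through replicate 1 of the Casp8-restored group. Cdh2 fell by 3.45 on the log2 scale in the Fadd/Mlkl knockout against Fadd-restored cells (SE 0.448, edgeR adjusted p = 0.00282).

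The Fadd line change of Cdh2 passed on leaving out each library in turn, with edgeR adjusted p between 0.00532 and 0.0223. Against the Casp8/Mlkl knockout, Cdh2 was 40.0-fold lower in the Fadd/Mlkl knockout (log2 -5.32, SE 0.488, edgeR adjusted p = 0.000125). The restored groups differed 7.65-fold, again lower in the Fadd line (log2 -2.94, SE 0.435, edgeR adjusted p = 0.00412). In the Casp8 line the change was -1.06 (SE 0.409, edgeR adjusted p = 0.77), and without Casp8-restored replicate 1 it was -1.50 and passed (edgeR adjusted p = 0.0295). The difference between the lines' changes was -2.39 (SE 0.583) and did not pass (edgeR adjusted p = 0.121). It passed without Casp8-restored replicate 1 (-1.95, edgeR adjusted p = 0.00885), without all replicate 1 libraries (-2.03, 0.00174) and by DESeq2 (0.00455). It did not pass by limma-voom (adjusted p = 0.191), with the block within each line (edgeR adjusted p = 0.0861) or over all 12 libraries (0.072). Nor did it pass with no filter (0.0576) or with any other single library left out (up to 0.304). Without all replicate 1 libraries the Casp8 line change was -1.46 and passed too (edgeR adjusted p = 0.00186).

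Cdh11, a cadherin of mesenchyme (chromosome 8, 102632095 to 102785642), did not follow Cdh2. It read 6.46, 12.4 and 9.07 TPM in the Fadd/Mlkl knockout and 9.97, 13.4 and 13.9 TPM in the Fadd-restored group. It read 5.15, 17.9 and 24.8 TPM in the Casp8/Mlkl knockout and 13.4, 8.81 and 5.79 TPM in the Casp8-restored group. All 4 groups overlapped, and the widest spread was within the Casp8/Mlkl knockout. The log2 change was -0.33 in the Fadd line (SE 0.48, edgeR adjusted p = 0.993) and 0.68 in the Casp8 line (SE 0.481, edgeR adjusted p = 0.956). The lines differed by -0.57 between the knockout groups (SE 0.481, edgeR adjusted p = 0.533) and by 0.44 between the restored groups (SE 0.48, edgeR adjusted p = 0.673). Cdh11 passed without the replicate 1 libraries in the Casp8 line (1.45, edgeR adjusted p = 0.00685), in the difference between lines (-1.79, 0.0108), between the knockout groups (-0.81, 0.0172) and between the restored groups (0.97, 0.0102).

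In the cadherin pool, Cdh2 made up 9.5%, 6.54% and 9.65% of the summed Cdh1, Cdh2 and Cdh11 TPM in the Fadd/Mlkl knockout and 44.4%, 42.7% and 45.6% in the Fadd-restored group. The share was 87.5%, 67.1% and 63% in the Casp8/Mlkl knockout and 67.3%, 92.7% and 94.5% in the Casp8-restored group. Cdh11 was thus the major cadherin of these 3 in the Fadd line and Cdh2 in the Casp8 line, in every library. The means were 8.56% ± 1.75 and 44.2% ± 1.46 (SD, n = 3) in the Fadd line, an exact permutation p of 0.1, the smallest possible (0.141 adjusted). They were 72.5% ± 13.1 and 84.8% ± 15.2 in the Casp8 line (n = 3, exact permutation p = 0.2, 0.253 adjusted).

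**Figure D1:**
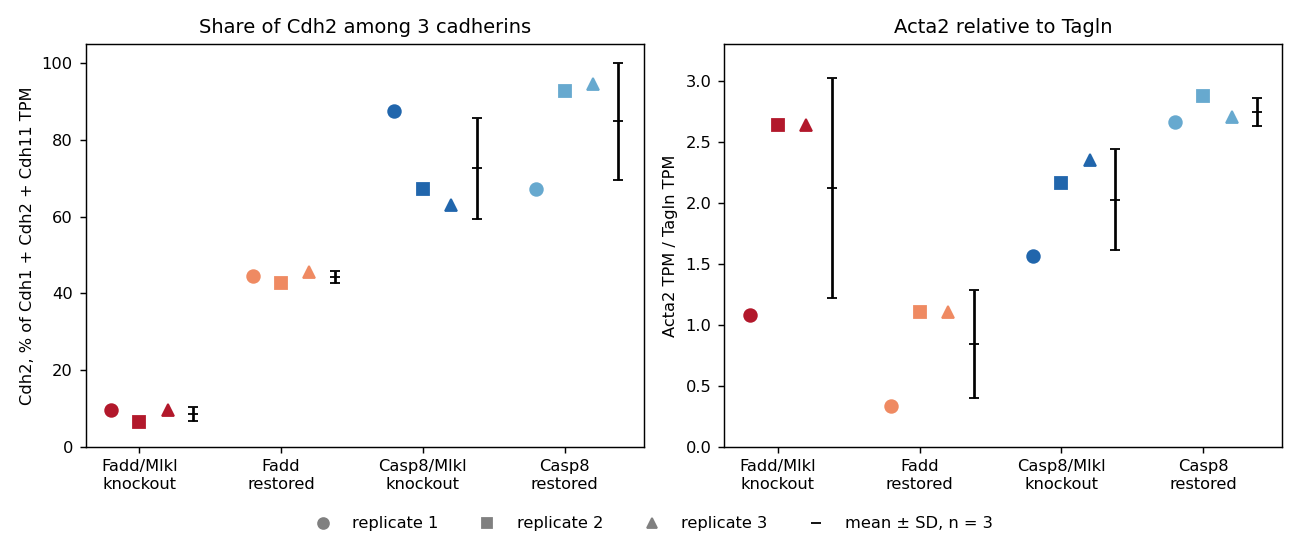
Within-library ratios for the 12 libraries by group, each point 1 library (its shape the replicate) and each bar the group mean ± SD (n = 3). The left panel gives the share of Cdh2 in percent and the right panel Acta2 TPM over Tagln TPM. Cdh2 is below 10% of the summed Cdh1, Cdh2 and Cdh11 TPM in the Fadd/Mlkl knockout, between 42.7% and 45.6% in the Fadd-restored group and above 60% in the Casp8 line.

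Vim, which encodes the intermediate filament protein of fibroblasts (chromosome 2, 13573927 to 13582826), was the most abundant of the 10 in every library. It read 479, 556 and 432 TPM in the Fadd/Mlkl knockout and 644, 692 and 672 TPM in the Fadd-restored group. It read 1216, 800 and 812 TPM in the Casp8/Mlkl knockout and 931, 1199 and 1087 TPM in the Casp8-restored group. In TPM, Fadd line libraries were all below Casp8 line libraries. In CPM the lines overlapped, with Casp8/Mlkl knockout replicate 3 at 1622 and Fadd-restored replicate 3 at 1637. Within the Fadd line the knockout was below the restored group with no overlap. The log2 change was -0.33 in the Fadd line (SE 0.216, edgeR adjusted p = 0.77) and -0.18 in the Casp8 line (SE 0.216, edgeR adjusted p = 0.999).

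Vim was 1.70-fold lower in the Fadd/Mlkl knockout than in the Casp8/Mlkl knockout (log2 -0.76, SE 0.217, edgeR adjusted p = 0.047). That call was lost on leaving out any 1 of the 6 libraries other than Casp8/Mlkl knockout replicate 3, with edgeR adjusted p between 0.0869 and 0.147, and it held at 0.0311 without that replicate. With the replicate block it was lost as well (edgeR adjusted p = 0.0676). In the restored groups Vim differed between the lines by -0.61 (SE 0.217, edgeR adjusted p = 0.128). Without the replicate 1 libraries this passed (-0.69, edgeR adjusted p = 0.00906), as did the change in the Casp8 line (-0.56, edgeR adjusted p = 0.036). The knockout call was kept there (0.0227) and lost by limma-voom (0.0553), with no filter (0.0565) and with only the groups compared in the fit (0.154).

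**Figure D2:**
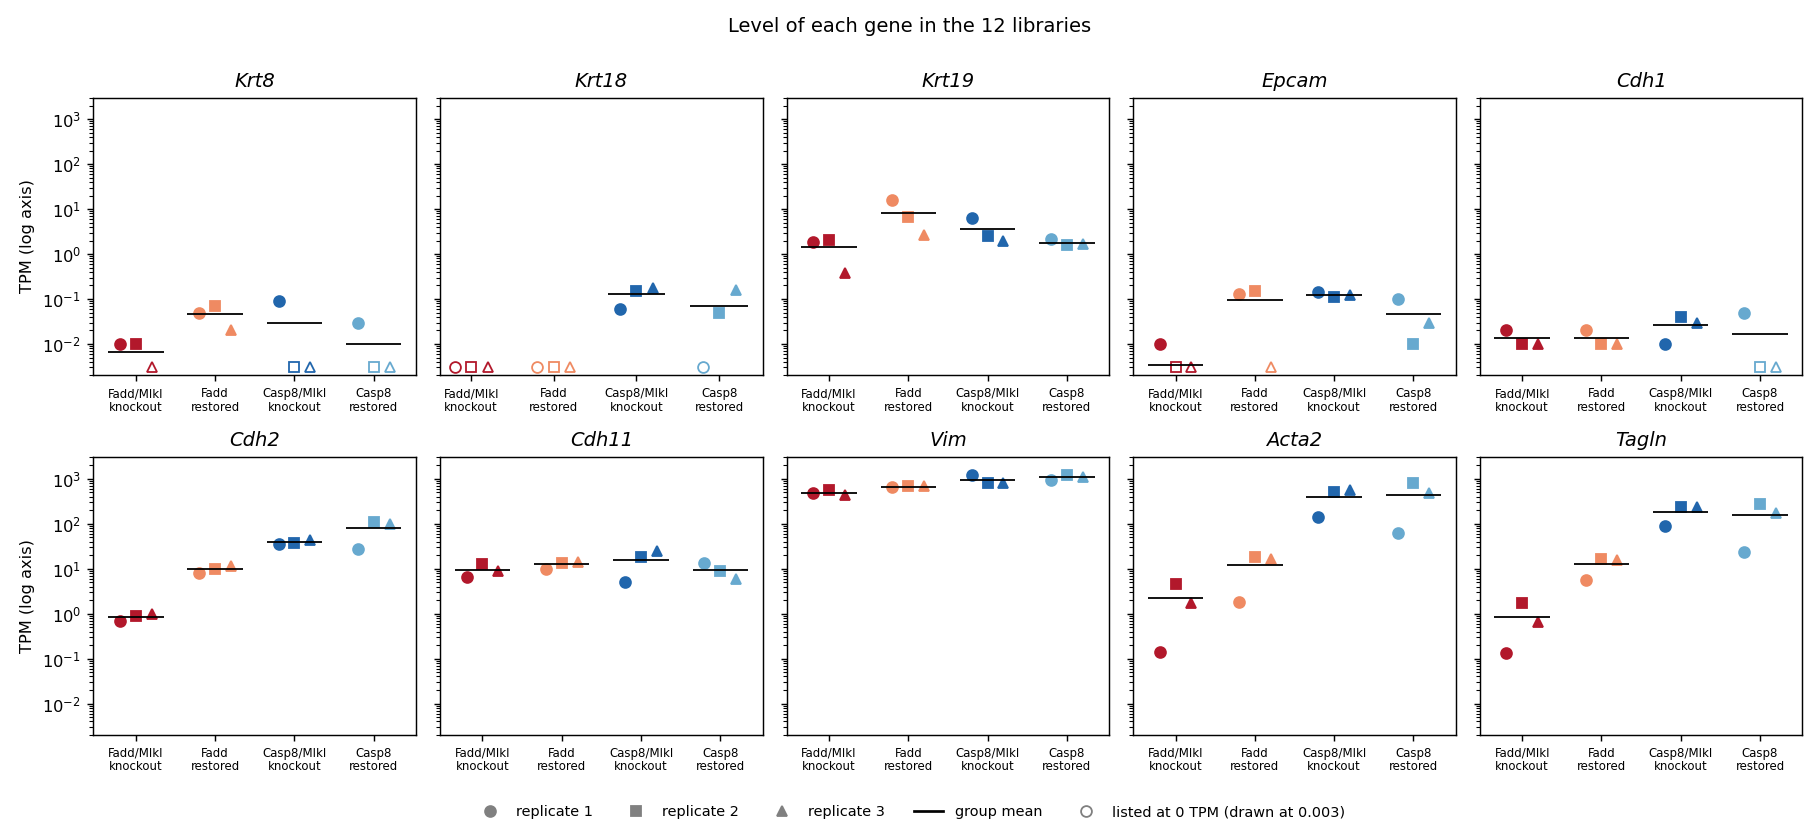
TPM of the 10 genes in each library on a log axis, by group, with a line at each group mean and open points at the bottom of the axis for values of 0. Vim lies above 400 TPM throughout, Krt8, Krt18, Epcam and Cdh1 lie below 0.2 TPM, and Cdh2, Acta2 and Tagln separate the lines.

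Acta2 and Tagln, which encode smooth muscle alpha-actin and an actin-bundling protein, spread most across the 12 libraries among the members with substantial levels. Acta2 (chromosome 19, 34241090 to 34255590) read 0.14, 4.64 and 1.74 TPM in the Fadd/Mlkl knockout and 1.83, 18.3 and 16.7 TPM in the Fadd-restored group. It read 140, 494 and 550 TPM in the Casp8/Mlkl knockout and 62.8, 788 and 475 TPM in the Casp8-restored group. Replicate 1 was the lowest of its group in each of the 4 groups, and every Casp8 line library was above every Fadd line library. The part of the higher mitochondrial share of 3 of those 4 replicate 1 libraries in these low values was not tested. The Fadd line groups overlapped through replicate 1 of the Fadd-restored group.

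The Acta2 log2 change was -2.40 in the Fadd line (SE 1.16) and did not pass (edgeR adjusted p = 0.544). With the replicate block it was -2.75 and passed (edgeR adjusted p = 0.0302). Without the replicate 1 libraries it was -2.35 and passed (edgeR adjusted p = 0.0147), as it did with a block over all 12 libraries (0.0286). It did not pass by DESeq2 (adjusted p = 0.377) or limma-voom (0.662). With any single library left out it did not pass either (edgeR adjusted p from 0.415 to 0.96). In the Casp8 line the change was -0.21 (SE 1.09, edgeR adjusted p = 0.999), and its sign turned with the block, to 0.23. Reads of the near-identical actins Actg2, Acta1 and Actc1 can be split with Acta2 by the counting; Actg2 means were 1.09, 1.16, 14.5 and 27.3 TPM in the 4 groups.

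Acta2 was 154-fold lower in the Fadd/Mlkl knockout than in the Casp8/Mlkl knockout (log2 -7.27, SE 1.44, edgeR adjusted p = 0.00949). The call held on leaving out each library in turn, with edgeR adjusted p between 0.00718 and 0.0435 and log2 values from -8.35, without Fadd/Mlkl knockout replicate 2, to -6.71. Between the restored groups Acta2 was lower in the Fadd line by log2 -5.08 (SE 1.3, edgeR adjusted p = 0.0432). This call was lost on leaving out any 1 of the 6 libraries other than Casp8-restored replicate 1 (edgeR adjusted p between 0.102 and 0.141), and without that library the adjusted p was 0.0159. Without Casp8-restored replicate 2 the log2 value was -4.34, and with only the restored groups in the fit the call was lost (0.0601).

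Tagln (chromosome 9, 45929619 to 45936058) read 0.13, 1.76 and 0.66 TPM in the Fadd/Mlkl knockout and 5.49, 16.7 and 15.2 TPM in the Fadd-restored group. It read 89.6, 229 and 235 TPM in the Casp8/Mlkl knockout and 23.7, 275 and 176 TPM in the Casp8-restored group. Replicate 1 was again the lowest of each group, and the Fadd line groups did not overlap. Tagln changed by log2 -3.78 in the Fadd line (SE 0.987, edgeR adjusted p = 0.11), which did not pass, and with the replicate block fell by 4.11 on the log2 scale (edgeR adjusted p = 0.0152). It fell by 3.62 on that scale without the replicate 1 libraries (edgeR adjusted p = 0.00246). The Fadd line change passed by DESeq2 (adjusted p = 0.000394) and did not by limma-voom (0.272). With any single library left out it did not pass (edgeR adjusted p from 0.113 to 0.329).

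The Casp8 line change of Tagln was 0.21 (SE 0.868, edgeR adjusted p = 0.999). The difference between the lines' changes was -3.99 (SE 1.29, edgeR adjusted p = 0.347), and with the block it was -4.80 and passed (edgeR adjusted p = 0.0336), as it did without the replicate 1 libraries (-3.64, 0.0058). That difference passed by DESeq2 (adjusted p = 0.0291) and did not by limma-voom (0.428). With any single library left out it did not pass (edgeR adjusted p from 0.222 to 0.657). Tagln was 196-fold lower in the Fadd/Mlkl knockout than in the Casp8/Mlkl knockout (log2 -7.61, SE 1.17, edgeR adjusted p = 0.00228), and this call held without each library in turn, with log2 values from -8.62, without Fadd/Mlkl knockout replicate 2, to -7.10. Between the restored groups it was lower by log2 -3.62 in the Fadd line (SE 0.963, edgeR adjusted p = 0.0492), and that call was lost without any 1 library other than Casp8-restored replicate 1 (0.109 to 0.181, against 0.0104 without it). Without Casp8-restored replicate 2 the log2 value was -2.94, and the call was lost by limma-voom (0.0675) and with only the restored groups in the fit (0.0737). Tagln overlaps the antisense gene Gm48529 over 3627 bases. The sources used here do not say whether the counting used strand.

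The ratio of Acta2 to Tagln TPM was 1.08, 2.64 and 2.64 in the Fadd/Mlkl knockout and 0.333, 1.1 and 1.1 in the Fadd-restored group. It was 1.56, 2.16 and 2.35 in the Casp8/Mlkl knockout and 2.66, 2.87 and 2.7 in the Casp8-restored group. Unlike the level of either gene, the ratio did not separate the knockout groups (2.12 ± 0.901 and 2.02 ± 0.412, n = 3, exact permutation p = 1). In the Casp8 line the ratio was higher in every restored library (2.02 ± 0.412 and 2.74 ± 0.112, n = 3, exact permutation p = 0.1, 0.141 adjusted).

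**Figure D3:**
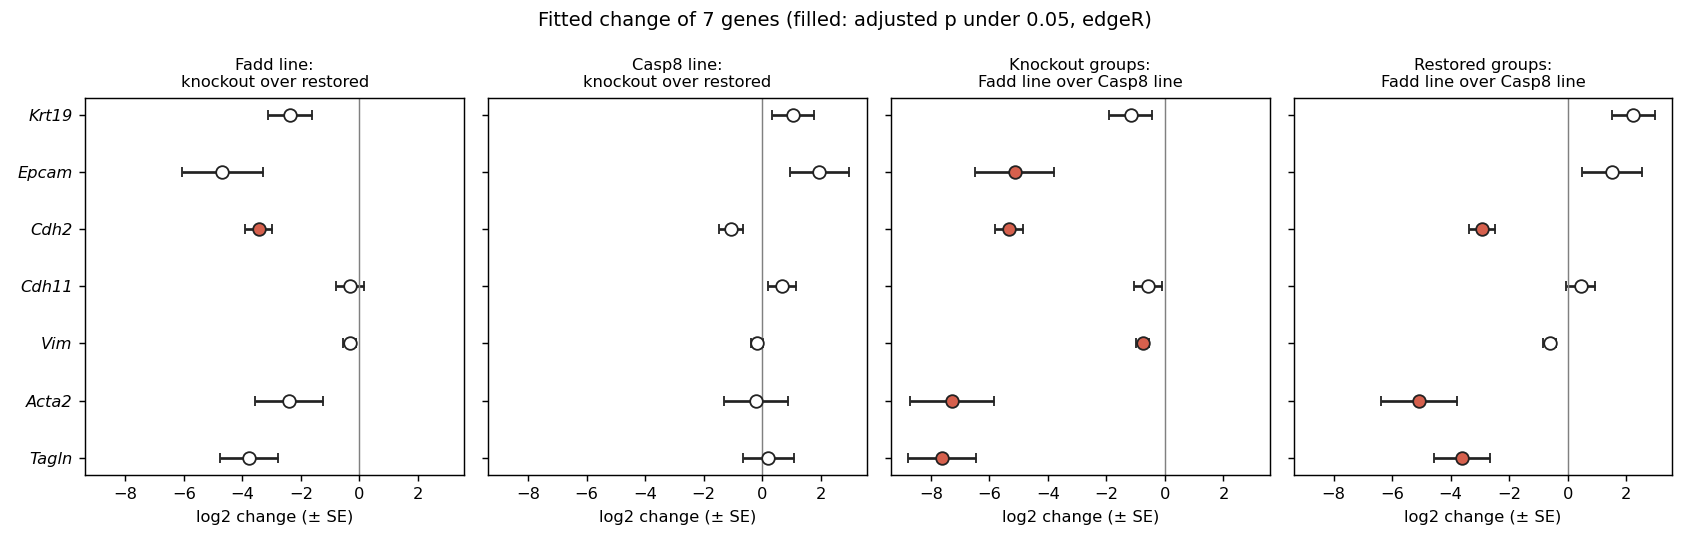
Log2 changes ± SE of 7 tested genes in the 4 comparisons between groups, from edgeR, filled where the adjusted p is under 0.05; Krt18, with no counts in the Fadd line, is left out. Cdh2 is filled in the Fadd line (-3.45) and in both comparisons between lines (-5.32 and -2.94), and the Casp8 line holds no filled point.

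Read together over the tested genes, the comparison within the Fadd line called 1 of 8, Cdh2, and it was lower, where 1.52% of all genes tested were called and 1.24% were called lower. Within the Casp8 line 0 of 8 were called by edgeR, against 0.0061% of all genes. By DESeq2 and limma-voom the count was also 0. Of the 8, 1 had an unadjusted edgeR p under 0.05, as did 930 of all 16396 genes. The difference between the lines called 0 of 8 by edgeR, against 0.842% of all genes (0.0549% higher and 0.787% lower), with 4 at an unadjusted p under 0.05, 4 called by DESeq2 and 0 by limma-voom. Of all 16396 genes, 1213 had such an unadjusted p in that contrast, and DESeq2 called 420. Between the knockout groups 5 of 8 were lower in the Fadd line (Epcam, Cdh2, Vim, Acta2, Tagln), where 10.5% of all genes were called, 3.46% higher and 7.01% lower. Between the restored groups 3 of 8 were lower in the Fadd line (Cdh2, Acta2, Tagln), where 6.34% of all genes were called, 2.93% higher and 3.4% lower.

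These counts describe the 8 tested members only, since Krt18 and Epcam passed the filter through the groups in which they had counts. The comparisons share groups, so they are not independent of each other. With the replicate block within each line, the Fadd line comparison called 4 of 8 lower (Krt19, Cdh2, Acta2, Tagln) and the Casp8 line 0, where 338 and 1 of all genes were called lower. Without the replicate 1 libraries the counts were 3 in the Fadd line, 3 in the Casp8 line (2 lower, 1 higher), 6 between the knockout groups and 6 between the restored groups, where that fit called 1001, 2923, 6822 and 5498 of all genes. In the Casp8 line those members were Cdh2, Vim and Cdh11. Between the knockout groups Epcam was lost there and Krt18 and Cdh11 gained, and between the restored groups Krt18, Cdh11 and Vim were gained. The difference between the lines called 2 members with the block (Krt19, Tagln) among 239 genes, and 3 without the replicate 1 libraries (Cdh2, Cdh11, Tagln) among 1842.

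Lists of genes with related roles were read beside the members by their counts and medians, without a test of the list. Over the 10 lists 99 of 140 genes were tested: edgeR called 1 higher and 3 lower in the Fadd line (13 at an unadjusted p under 0.05) and 0 in the Casp8 line (9 at an unadjusted p under 0.05, 5 called by DESeq2 and 0 by limma-voom). Of all 16396 genes, 1682 in the Fadd line and 930 in the Casp8 line had an unadjusted p under 0.05. DESeq2 called 143 genes in the Casp8 line. Of the 22 contractile genes and SRF targets, 21 were tested: 0 were called within either line, 6 were lower in the Fadd/Mlkl knockout than in the Casp8/Mlkl knockout, and 4 were lower in the Fadd-restored than in the Casp8-restored group. The list median of the log2 differences was -1 between the knockout groups and -0.96 between the restored groups, against -0.00429 and -0.00922 over all genes tested. With the replicate block 2 were lower in the Fadd line, 13 between the knockout groups, and 12 lower and 1 higher between the restored groups. The fit with that block within each line also called more of all genes. Between the knockout groups it called 3331 (2028 lower), against 1718 (1150 lower) without the block. Between the restored groups it called 2780 (1432 lower) against 1039 (558 lower), and in the Fadd line 444 (338 lower) against 250 (203 lower). The blocked counts of the other lists below stand beside the same totals. Cnn1, the actin-binding calponin of smooth muscle, read 0.0333 ± 0.0306, 0.187 ± 0.0702, 3.87 ± 3.09 and 4.03 ± 3.24 TPM (SD, n = 3) in the 4 groups. Myl9, a myosin regulatory light chain, read 4.90 ± 0.64, 13.1 ± 2.78, 140 ± 71.9 and 149 ± 110 TPM. Both were lower in the Fadd line between the knockout groups, Cnn1 by log2 -6.80 (SE 1.29, edgeR adjusted p = 0.00729) and Myl9 by log2 -4.63 (SE 0.684, edgeR adjusted p = 0.00185). By limma-voom the Cnn1 call was lost (adjusted p = 0.105). Cnn1 lay near 0 in the Fadd/Mlkl knockout and was far higher in the Casp8 line, so its p-values are given as a description. Srf itself read 15.7, 16.5, 17.4 and 18.3 TPM and was called in no comparison, and is named here after its values were seen.

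All 12 listed transcription factors of the epithelial to mesenchymal transition were tested. In the Fadd line 1 rose and 0 fell, and in the Casp8 line 0 were called. Zeb2, a repressor of Cdh1, read 8.24 ± 0.655 TPM in the Fadd/Mlkl knockout and 2.93 ± 0.991 TPM in the Fadd-restored group (SD, n = 3). Zeb2 rose by 1.61 on the log2 scale (SE 0.267, edgeR adjusted p = 0.0114), and the call was lost without Fadd/Mlkl knockout replicate 3 (0.0549) or Fadd-restored replicate 2 (0.0649), and with only the Fadd line groups in the fit (0.0852). Between the knockout groups 1 factor was higher and 4 were lower in the Fadd line, and between the restored groups 2 were higher and 4 lower. Prrx1, a homeobox factor of limb and craniofacial mesenchyme, read 0.583 ± 0.208 and 0.763 ± 0.461 TPM in the Fadd line groups and 59.1 ± 36.4 and 52.8 ± 1.69 TPM in the Casp8 line groups. It was lower in the Fadd line between the knockout groups (log2 -6.51, SE 0.705, edgeR adjusted p = 0.000309) and between the restored groups (log2 -6.00, SE 0.689, edgeR adjusted p = 0.00107), the latter -6.75 without Fadd-restored replicate 3.

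Of 29 epithelial junction and adhesion genes 14 were tested, and of these 0 rose and 1 fell in the Fadd line, none was called in the Casp8 line, and 3 were lower between the knockout groups. The largest of the latter was Dsp (log2 -7.735, SE 0.931, edgeR adjusted p = 0.000622), with 1 count in the Fadd/Mlkl knockout against 234. The Dsp call held without each library in turn. Dsp passed the filter on low counts through the Casp8 line, where it is high. Perp, a desmosome-associated membrane protein gene, read 0.29 ± 0.0819 TPM in the Fadd/Mlkl knockout and 6.09 ± 2.29 TPM in the Fadd-restored group (SD, n = 3). It fell by 4.29 on the log2 scale (SE 0.466, edgeR adjusted p = 0.000819). Between the restored groups 3 of the 14 were higher in the Fadd line and 1 lower. With the block 3 were higher and 3 lower between the knockout groups, and 6 higher and 1 lower between the restored groups. The higher ones without it include Spint1, an inhibitor of epithelial serine proteases, by 3.16 (SE 0.52, edgeR adjusted p = 0.00722) and Jup, the junction plakoglobin, by 1.96 (SE 0.372, edgeR adjusted p = 0.0132). The Jup call was lost without Fadd-restored replicate 1 (0.0568) or Casp8-restored replicate 3 (0.0622). Of 9 other keratins 2 were tested and 0 were called in any of the 5 comparisons by edgeR, and with the block 1 was higher between the restored groups. Of 10 epithelial regulators 4 were tested, and 1, the splicing factor gene Esrp2, was lower in the Fadd line between the knockout groups (edgeR adjusted p = 0.00119), with 2 counts against 76 (49.5 times as high in the Casp8/Mlkl knockout, 95% counting interval 13.2 to 416). Esrp2 had 3 counts in the Fadd-restored and 15 in the Casp8-restored group. It thus passed the filter on low counts through the Casp8/Mlkl knockout, where it is high, and it is named here after its values were seen.

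Of 10 other cadherins 4 were tested, and 1 of them, Cdh3, fell in the Fadd line. Cdh3 encodes P-cadherin, and it read 0.34 ± 0.187, 3.16 ± 0.42, 4.31 ± 0.872 and 6.503 ± 1.29 TPM in the 4 groups (SD, n = 3), the same order of group means as Cdh2. Cdh3 fell by 3.13 on the log2 scale in the Fadd line (SE 0.368, edgeR adjusted p = 0.0014) and was lower by log2 -3.51 between the knockout groups (SE 0.374, edgeR adjusted p = 0.000286). Of 6 catenins, the cytoplasmic partners of cadherins, 5 were tested, 0 were called within either line by edgeR, and 1 (Ctnnd1, p120 catenin) was lower between the knockout groups (log2 -1.03, SE 0.234, edgeR adjusted p = 0.018), a call lost without Fadd/Mlkl knockout replicate 1 or 3 (0.0604, 0.0676) or Casp8/Mlkl knockout replicate 2 or 3 (0.0712, 0.0777), and with only the knockout groups in the fit (0.0875). With the block 3 catenins were lower between the knockout groups and 1 between the restored groups, where 1 other cadherin was lower as well.

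Of 19 fibroblast and mesenchymal genes 15 were tested, of which 1, Col1a2, fell in the Fadd line and 6 were lower and 1 higher between the knockout groups, with a median of -1.52. Between the restored groups 3 were lower, and 5 with the block. Col1a2, a chain of type I collagen, read 0.143 ± 0.102, 33.0 ± 18.8, 584 ± 335 and 567 ± 278 TPM in the 4 groups (SD, n = 3). It fell by 7.70 on the log2 scale in the Fadd line (SE 0.779, edgeR adjusted p = 0.000557). All 15 listed genes of the TGF-beta pathway were tested, and 0 were called within either line by edgeR, while 6 were lower between the knockout groups and 5 between the restored groups. The ligand gene Tgfb3 read 3.67 ± 0.862, 6.10 ± 1.24, 66.4 ± 49.3 and 62.8 ± 22.6 TPM, and was lower in the Fadd line by log2 -3.98 between the knockout groups (SE 0.676, edgeR adjusted p = 0.00412). Of 8 other intermediate filament and linker genes 7 were tested, and 1, the synemin gene Synm, was lower in the Fadd line between the restored groups (log2 -2.12, SE 0.4, edgeR adjusted p = 0.0125). The Synm call was lost without Fadd-restored replicate 2 (0.051) or Casp8-restored replicate 2 (0.0507). With the block 1 of the 7 was higher and 2 lower between the knockout groups, and 2 were higher and 1 lower between the restored groups.

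**Figure D4:**
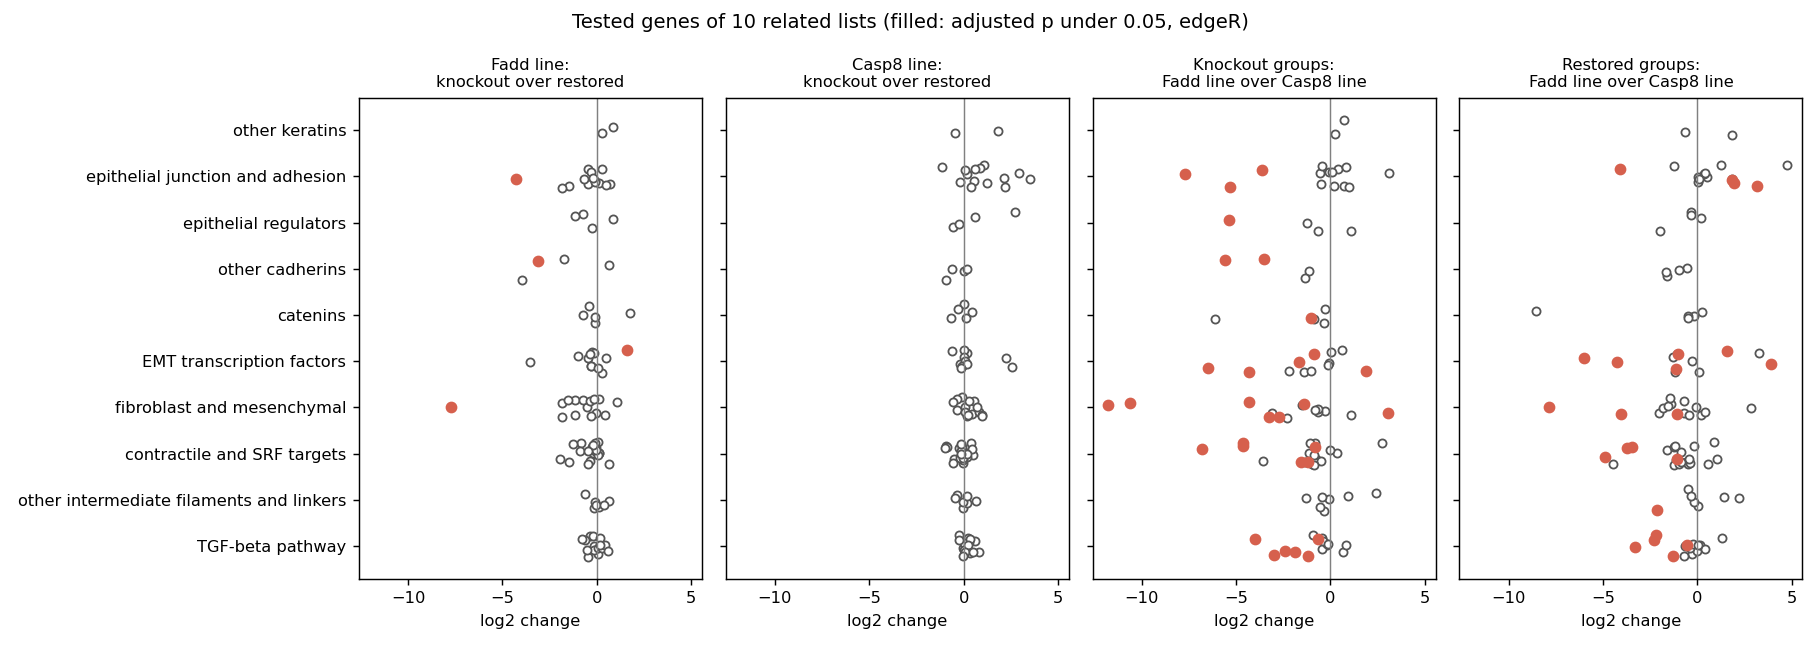
Log2 changes of the 99 tested genes of 10 related lists in the 4 comparisons between groups, each point 1 gene, filled where the edgeR adjusted p is under 0.05, with a line at 0. Within the lines 4 and 0 genes are filled. Between the lines most filled points lie below 0 (29 of 31 between the knockout groups, where 1150 of 1718 called among all genes tested were lower). The lists were chosen with earlier results of these data known.

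Genes whose log2 CPM ran most closely with a member were ranked by Pearson's r over the 12 libraries, which share 2 lines and 4 groups, so any gene that separates the lines ranks high. Fhl1, a LIM-domain protein gene, ranked second for both Cdh2 (r = 0.984) and Tagln (r = 0.983), and read 0.16 to 0.74 TPM in the Fadd/Mlkl knockout, 3.92 to 10.96 in the Fadd-restored group and 27.9 to 227 in the Casp8 line. For Cdh2 the closest gene was Msl3l2 (0.985), for Tagln Mtmr9 (0.983) and for Acta2 Pkia (0.994), then Cpne8 (0.985). Krt19 ran closest with Pim2 (0.945) and Epb41 (0.898), and Vim with Chp1 (0.95) and Fez2 (0.931). Cdh11 had the loosest leading match, Iah1 (0.844), followed by Fut10 (0.82). The leading matches of Epcam, Abhd3 (0.886) and Arsi (0.871), and of Krt18, Hist3h2ba (0.963) and Ripk4 (0.952), rest on few counts of the member.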

How the data were processed

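Per the labels' protocols, the authors made stranded total-RNA libraries, sequenced paired ends, aligned reads to mm10 with the GENCODE M22 annotation and counted genes with RSEM. The submitters' processing notes name Trim Galore 0.5.0 and STAR 2.7.5a. Each deposited table holds RSEM expected counts, TPM and FPKM per the file headers; FPKM and a table of endogenous retrovirus loci were not used here. The authors' deposited expected counts carry no normalization (96.05% of those above 0 are whole) and were rounded for testing. The authors' deposited TPM, scaled for length and depth, were used to compare levels between genes. The 92 spike-in rows held 0 counts and were left out.

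Genes were kept by filterByExpr (minimum count 10), scaled by TMM and fitted with 1 mean per group over all 12 libraries by the quasi-likelihood test of edgeR 4.0.16 (R 4.3.3, biological coefficient of variation 0.37). P-values were adjusted by Benjamini-Hochberg over the 16396 genes and called under 0.05, and each SE follows from the log2 change and its F value. The scripts were tested on simulated data. Alternatives used DESeq2 1.42.0, limma-voom (limma 3.58.1), other size factors, no filter, replicate blocks and left-out libraries. P-values measure the spread between 3 cultures per group.

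Replicate numbers are shared by the groups, with no label saying what they mark. Deviations from group means correlated between same-numbered libraries by 0.66, 0.391 and 0.639 in the Fadd line and by 0.203, 0.305 and 0.127 in the Casp8 line. Across the lines the values were -0.252, 0.0711 and -0.371 between the knockout groups and 0.317, 0.161 and 0.243 between the restored groups. The numbers were taken to pair libraries within a line, an assumption that the low Casp8 line values leave less certain. Blocked values are printed where they change a call.

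Genes beside the members were named where they were among the 3 largest called changes of their list with a mean of at least 1 CPM in a group, and the 2 best matches per member by Pearson's r. The members and lists were chosen with earlier results of these data known. Gene positions come from GENCODE M21 on mm10, and promoter sequences from RefSeq (GRCm38.p6). The promoter of Krt8 is not reported here.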

Additional observations from a re-analysis of the deposited data

Results flagged for a closer look

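The tests of the difference between the lines' changes, knockout against restored, passed for 6 genes of the lists read beside the members, all with a more negative change in the Fadd line. Over all genes tested 138 were called in this contrast, 129 lower and 9 higher, so that direction is not particular to these genes. Col1a2 differed by log2 -7.76 (edgeR adjusted p = 0.00236) and Perp by log2 -4.12 (edgeR adjusted p = 0.00692), and both calls held on leaving out each library in turn. Klf8 differed by log2 -6.13 (edgeR adjusted p = 0.038), Spint1 by log2 -3.64 (edgeR adjusted p = 0.0366) and Cdh3 by log2 -2.54 (edgeR adjusted p = 0.0368), calls that were lost in 9, 9 and 8 of the 12 fits that leave out 1 library. With the replicate block within each line the Klf8 and Cdh3 calls were lost (edgeR adjusted p = 0.139 and 0.0591), and with a block over all 12 libraries those of Klf8, Spint1 and Cdh3 were (0.104, 0.081 and 0.0517). By limma-voom the Spint1 call was lost (0.0942). Spint2 differed by log2 -5.36 (edgeR adjusted p = 0.0336) on 2, 7, 72 and 8 expected counts in the 4 groups, so it passed the filter on low counts through the Casp8/Mlkl knockout, where it is high, and no fit with a library left out was run for it.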

How the results depend on the processing

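For Krt8, Krt18, Epcam and Cdh1, 1 to 38 counts per group stood behind most values. Their replicates differed as well, such as 11, 0 and 0 counts of Krt8 in the Casp8/Mlkl knockout and 14, 16 and 0 of Epcam in the Fadd-restored group. The precision of Acta2 and Tagln was limited by the spread between replicates. Counts of genes called, in the order Fadd line, Casp8 line, difference, knockout groups and restored groups, were 250, 1, 138, 1718 and 1039. DESeq2 called 697, 143, 420, 2753 and 2058 genes. The replicate block within each line, which takes the numbers as pairs, called 444, 6, 239, 3331 and 2780. Without the replicate 1 libraries, which was chosen after seeing the data, 1001, 2923, 1842, 6822 and 5498 were called. With no filter on low counts the Casp8 line called 4, and with only the groups compared in the fit it called 0 and the knockout groups 1046. Leaving out each library gave ranges of 103 to 181, 0 to 22, 90 to 241, 829 to 2558 and 301 to 2251. Of the members, the Fadd line called 2 with no filter, 3 with DESeq2, 3 with the block over all 12 libraries, 4 with the within-line block and 3 without the replicate 1 libraries. The Casp8 line called 3 without those libraries. The difference called 4 with DESeq2, 1 and 2 with the blocks over all 12 libraries and within each line, and 3 without the replicate 1 libraries. The restored groups called 1 with only those groups in the fit and 6 without the replicate 1 libraries. Leaving out each library gave 1 to 2, 0 to 1, 0 to 1, 3 to 4 and 1 to 4 members. Signs turned only where no change was called: Acta2 in the Casp8 line was 0.24 with limma-voom, 0.37 and 0.23 with the blocks over all libraries and within each line, and -0.75 to 0.53 with a library left out. Tagln there ran from -0.33 to 0.89, and the Vim difference between lines from -0.32 to 0.13, and was 0.17 without the replicate 1 libraries. The causes were not tested.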
